A study of Homo sapiens with 8 samples.

Results

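The 10 genes described here are CCNG2, YPEL3, YPEL5, BTG1, BTG2, TXNIP, ARRDC4, PIK3IP1, SESN1 and FOXO3, a set of growth-arrest and FOXO-linked genes. They were chosen by symbol, and each matched 1 of the 58870 gene rows of the deposited table. The set was drawn up with the comparison of ELAPOR1 and control libraries already known, in which CCNG2 and YPEL3 had been noted as strongly lower. The values of that comparison are therefore given for these genes as a description, without a test.

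The study sequenced RNA from Panc 10.05, an established line of human pancreatic cancer cells, in 8 libraries. Of these, 4 were from control cells and 4 from cells labelled ELAPOR1 overexpression. ELAPOR1 is the endosome-lysosome associated apoptosis and autophagy regulator 1. The series asks whether this gene promotes the classical/progenitor subtype of pancreatic cancer and alters metabolism. What the control cells carried, how ELAPOR1 was overexpressed, and whether the cells were a clone or a pool are not given in the sources used here. Nor are any batch or date, or whether the replicates were separate cultures. P-values therefore measure only the spread between these libraries, which may be technical. Values after ± are SDs over the 4 libraries of a group, with the control value first.

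Cells that leave the cell cycle, or that receive little growth factor or nutrient signal, raise a group of transcripts that slow growth. FOXO transcription factors stand at the centre of this response: the kinase AKT, acting downstream of PI3 kinase, phosphorylates them and keeps them out of the nucleus, and when AKT activity is low they enter the nucleus and activate targets such as CCNG2. TXNIP and ARRDC4 belong to a neighbouring nutrient circuit, in which the glucose-sensing factor MondoA (MLXIP), with its partner MLX, activates them when glucose phosphates accumulate.

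Control libraries held 16558600 to 18128757 counts and ELAPOR1 libraries 13765509 to 17258166. The ELAPOR1 gene had 1 to 4 counts in the control libraries and 5910 to 7368 in the ELAPOR1 libraries, so all 8 libraries matched their labels. Of 13860 genes tested across the whole table, 44.7% were called at an adjusted p-value (edgeR) below 0.05, with 22.6% higher and 22.1% lower in ELAPOR1, and the common biological coefficient of variation was 0.0401. Ductal epithelial markers were abundant, with KRT8 at a mean of 5070 counts per 1e6 (CPM) and EPCAM at 628 CPM. The 6 ductal markers summed to 11930 to 13200 CPM in control and 11160 to 11510 CPM in ELAPOR1 libraries, and none was at 0. They went both ways, with control means first: KRT8 (5360 and 4790), KRT18 (4690 and 3660) and EPCAM (634 and 623) were lower in ELAPOR1. KRT7 (1110 and 1380), KRT19 (471 and 558) and CDH1 (343 and 370) were higher. Of the 6 fibroblast markers COL1A2, DCN and LUM were at 0 in every library, while COL1A1 averaged 3.14 CPM. Of the 6 leukocyte markers CD3E was at 0 and PTPRC at 0.0153 CPM. CD68, a lysosomal glycoprotein of many cell types, made up nearly all of the leukocyte sum, at 80 CPM. The 4 endothelial markers summed to 1.62 to 2.13 CPM in control and 0.576 to 0.998 CPM in ELAPOR1 libraries, mostly from VWF, with CDH5 at 0. Reads of the mitochondrial genome took 4.29 to 4.41% of counts in control and 4.70 to 4.93% in ELAPOR1 libraries, and the part of these differences between groups in the values below was not tested. In bulk RNA, fewer cells of a kind and less RNA per cell cannot be told apart.

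Among the 10 genes, the values in ELAPOR1 libraries were lower for CCNG2, YPEL3, YPEL5, BTG1 and PIK3IP1, higher for TXNIP and ARRDC4, and overlapping those of the control libraries for BTG2, SESN1 and FOXO3. All 10 passed the filter on low counts. Control and ELAPOR1 ranges were separate for 7 of the genes, 5 lower and 2 higher, and among all tested genes for 39.2% (19.3% lower and 20% higher). CCNG2 and YPEL3 had a log2 fold change of -1 or lower, which 1.17% of all tested genes had. Since this comparison served to choose the set, these counts carry no weight of their own. The median log2 fold change of the 10 genes was -0.14, beside 0.00087 for all tested genes.

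**Figure D1:**
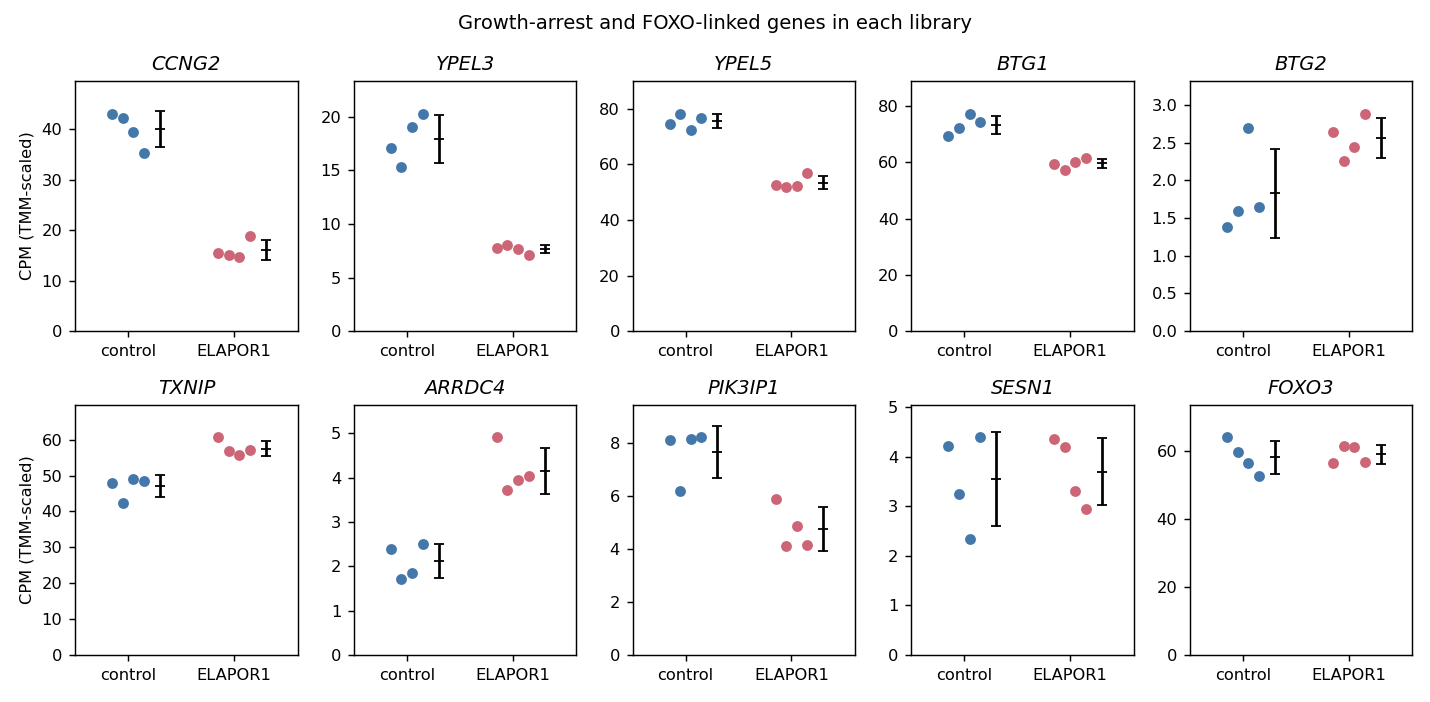
TMM-scaled CPM (vertical axis, from 0) of each of the 10 genes in the 4 control libraries (blue) and the 4 ELAPOR1 libraries (red), with points in the order of replicate number and black bars for the mean and SD. CCNG2 lies between 35.4 and 43.1 CPM in control and between 14.8 and 18.9 CPM in ELAPOR1, while the points of FOXO3 and SESN1 overlap.

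CCNG2 encodes cyclin G2, an unconventional cyclin that rises in quiescent and growth-inhibited cells and slows entry into the cell cycle. It is a direct FOXO target in textbook accounts. The gene (ENSG00000138764.15) spans 77157151 to 77433388 of chromosome 4, plus strand, in GENCODE release 29. Control replicates 1 to 4 held 43.1, 42.3, 39.4 and 35.4 CPM. ELAPOR1 replicates 1 to 4 held 15.5, 15.04, 14.8 and 18.9 CPM. Every control library was thus above every ELAPOR1 library, and the lowest control value was well above the highest ELAPOR1 value. The means were 40.0 ± 3.50 and 16.0 ± 1.94 CPM (SD, n = 4 each), and the log2 fold change was -1.31 (SE 0.0772), or 2.48-fold lower. It ranked 59th of 13860 tested genes from the lowest log2 fold change. In that annotation 4 genes overlap CCNG2 on the opposite strand, and all of them had 0 counts in every library.

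YPEL3 belongs to the yippee-like family, small zinc-binding proteins conserved from yeast to man, and has been described as a growth suppressor that can drive senescence. The gene (ENSG00000090238.11) spans 30092314 to 30096915 of chromosome 16, minus strand. Control replicates 1 to 4 held 17.1, 15.3, 19.1 and 20.3 CPM. ELAPOR1 replicates 1 to 4 held 7.80, 8.05, 7.70 and 7.15 CPM. The ELAPOR1 libraries lay close together and far below the control libraries, which spread more widely. The means were 17.9 ± 2.21 and 7.68 ± 0.378 CPM (SD, n = 4 each), and the log2 fold change was -1.22 (SE 0.0986), or 2.34-fold lower, the 72nd lowest of all tested genes. The antisense gene AC012645.1 overlaps YPEL3 and held at most 7 counts in any library, against at least 107 for YPEL3.

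The promoters of these 2 genes are shown because they carry the largest differences of the set. Each is the RefSeq window (GRCh38.p14) of 250 bases before and 50 after an annotated start site, on the strand of the gene. Positions are counted from the start site as 0. Capitals mark matches, on either strand, to the core FOXO motif TGTTTAC, the E-box CACGTG, a paired E-box-like motif (CACGNG, any 5 bases, CACGNG) or the CCAAT box CCAAT. CCNG2 is at chr4:77156957-77157256 (plus strand) and YPEL3 at chr16:30096164-30096463 (minus strand).
CCNG2: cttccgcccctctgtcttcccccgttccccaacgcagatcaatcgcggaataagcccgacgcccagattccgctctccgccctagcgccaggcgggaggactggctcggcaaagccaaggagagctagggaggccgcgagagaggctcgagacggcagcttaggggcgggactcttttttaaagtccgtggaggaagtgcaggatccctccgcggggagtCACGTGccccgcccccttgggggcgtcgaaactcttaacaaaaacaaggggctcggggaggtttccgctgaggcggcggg
YPEL3: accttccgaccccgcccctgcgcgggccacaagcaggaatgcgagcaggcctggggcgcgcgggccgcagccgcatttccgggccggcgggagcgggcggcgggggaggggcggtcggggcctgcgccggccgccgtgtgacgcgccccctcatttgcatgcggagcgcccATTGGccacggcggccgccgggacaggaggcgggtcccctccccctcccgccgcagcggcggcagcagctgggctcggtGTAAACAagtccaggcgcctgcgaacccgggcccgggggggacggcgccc
CCNG2 had 1 E-box, which begins at position -30, and no match to TGTTTAC in this window. YPEL3 had a match to TGTTTAC on the opposite strand, beginning at position 0, and a CCAAT box on the opposite strand at position -79. In all, TGTTTAC was present in 4 of the 17 windows of the 10 genes (1 each of BTG1, PIK3IP1, TXNIP and YPEL3) and in 3.42% of 35116 windows of all genes. CACGTG was present in 2 of the 17 windows (CCNG2 and ARRDC4) and in 7.26% of all windows, and CCAAT in 7 and in 34.6%. Several windows belong to 1 gene, and a match of letters says nothing about binding. The set was drawn up as FOXO-linked, so its share of TGTTTAC is no independent result, and no share was tested.

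YPEL5 is the most conserved yippee-like protein and a subunit of the CTLH ubiquitin ligase, the human form of the yeast GID complex. The gene (ENSG00000119801.13, chromosome 2, 30146941 to 30160533, plus strand) overlaps no other gene. Control replicates 1 to 4 held 74.6, 78.2, 72.3 and 76.6 CPM. ELAPOR1 replicates 1 to 4 held 52.7, 51.8, 52.3 and 56.7 CPM. The groups were apart and both were tight, with coefficients of variation of 3.36% and 4.18%. The log2 fold change was -0.50 (SE 0.0457), or 1.41-fold lower in ELAPOR1.

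BTG1 and BTG2 are antiproliferative proteins that bind the CCR4-NOT deadenylase and speed the decay of messenger RNA. BTG1 (ENSG00000133639.5, chromosome 12, 92140278 to 92145897, minus strand) held 69.5, 72.0, 77.3 and 74.3 CPM in control replicates 1 to 4. It held 59.4, 57.2, 60.3 and 61.4 CPM in ELAPOR1 replicates 1 to 4. All ELAPOR1 libraries were below all control libraries, and the log2 fold change was -0.30 (SE 0.0453). The overlapping genes AC025164.1 and LINC01619 held at most 2 counts each.

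BTG2, a p53-inducible gene, was scarce by comparison. BTG2 (ENSG00000159388.6, chromosome 1, 203305491 to 203309602, plus strand) held 1.39, 1.59, 2.70 and 1.65 CPM in control replicates 1 to 4 and 2.64, 2.26, 2.45 and 2.88 CPM in ELAPOR1 replicates 1 to 4, from 25 to 50 counts each. Control replicate 3 lay inside the ELAPOR1 range and the other control libraries below it. The means were 1.83 ± 0.588 and 2.56 ± 0.266 CPM (SD, n = 4 each), and the log2 fold change was 0.49 (SE 0.235). Without control replicate 3 the log2 fold change was 0.73. BTG1 and BTG2 thus had values of opposite sign, and the difference between them was not tested.

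TXNIP encodes the thioredoxin-interacting protein, an alpha-arrestin that binds thioredoxin and lowers glucose uptake by drawing glucose transporters from the cell surface. ARRDC4 is its closest relative and a second glucose-responsive MondoA target. TXNIP (ENSG00000265972.5, chromosome 1, 145992435 to 145996600, minus strand) held 48.0, 42.4, 49.0 and 48.6 CPM in control replicates 1 to 4. It held 60.6, 56.8, 55.6 and 57.1 CPM in ELAPOR1 replicates 1 to 4. All ELAPOR1 libraries were above all control libraries, with a log2 fold change of 0.29 (SE 0.0517), or 22.5% higher.

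ARRDC4 (ENSG00000140450.9, chromosome 15, 97960698 to 97973838, plus strand) held 2.38, 1.71, 1.86 and 2.50 CPM in control replicates 1 to 4, from 29 to 43 counts. It held 4.91, 3.73, 3.96 and 4.04 CPM in ELAPOR1 replicates 1 to 4, from 55 to 80 counts. The groups did not overlap in spite of these low counts. The log2 fold change was 0.98 (SE 0.192), or 1.97-fold higher, the largest positive value of the set. It ranked 176th from the highest among all tested genes.

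The promoters of TXNIP and ARRDC4 are shown because these 2 genes are described as sharing a regulator and both had higher values in ELAPOR1 libraries. TXNIP is at chr1:145996530-145996829 (minus strand, the first of 2 annotated starts) and ARRDC4 at chr15:97960453-97960752 (plus strand), with capitals as above.
TXNIP: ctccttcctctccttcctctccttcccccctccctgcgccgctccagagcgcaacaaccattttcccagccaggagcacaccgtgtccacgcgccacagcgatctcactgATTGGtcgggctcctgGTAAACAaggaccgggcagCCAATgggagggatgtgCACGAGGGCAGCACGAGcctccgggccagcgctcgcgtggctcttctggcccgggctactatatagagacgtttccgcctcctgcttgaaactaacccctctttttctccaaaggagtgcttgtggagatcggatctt
ARRDC4: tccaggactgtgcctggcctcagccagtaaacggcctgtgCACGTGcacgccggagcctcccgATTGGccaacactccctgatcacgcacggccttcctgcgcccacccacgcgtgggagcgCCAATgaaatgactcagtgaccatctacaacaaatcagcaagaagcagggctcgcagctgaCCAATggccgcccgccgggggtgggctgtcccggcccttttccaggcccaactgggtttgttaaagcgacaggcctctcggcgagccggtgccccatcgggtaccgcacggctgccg
TXNIP had the paired motif as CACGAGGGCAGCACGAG, beginning at position -88, downstream of a CCAAT box at position -105. This spacing of E-box-like units is the layout of a carbohydrate response element. The paired motif in the letters given above was found in 20 of the 35116 windows (0.057%). Other forms of such paired units were not searched, so this is not the share of promoters with such an element. A match to TGTTTAC on the opposite strand begins at position -124 of TXNIP. ARRDC4 had 1 E-box at position -210 and 3 CCAAT boxes, of which 1 was on the opposite strand. No capital stretch of 1 motif overlapped that of another in either window.

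PIK3IP1 is a membrane protein that binds the catalytic subunit of PI3 kinase and restrains it, which lowers AKT signalling. PIK3IP1 (ENSG00000100100.12, chromosome 22, 31281593 to 31292534, minus strand) held 8.15, 6.20, 8.15 and 8.23 CPM in control replicates 1 to 4. It held 5.89, 4.13, 4.90 and 4.15 CPM in ELAPOR1 replicates 1 to 4. The groups came close, with control replicate 2 just above ELAPOR1 replicate 1, but did not overlap. The log2 fold change was -0.69 (SE 0.140), or 1.61-fold lower, from 62 to 147 counts per library. The overlapping antisense gene PIK3IP1-AS1 held at most 2 counts.

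SESN1, sestrin 1, is a stress-induced inhibitor of the growth kinase complex mTORC1 and a target of both p53 and FOXO factors. SESN1 (ENSG00000080546.13, chromosome 6, 108986437 to 109094819, minus strand) held 4.21, 3.25, 2.34 and 4.39 CPM in control and 4.36, 4.19, 3.31 and 2.94 CPM in ELAPOR1 replicates 1 to 4. The ranges overlapped almost fully. The log2 fold change was 0.059 (SE 0.194) and ranged from -0.095 to 0.17 when 1 library was left out in turn, on both sides of 0.

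FOXO3 is the FOXO factor that gives the set its name. FOXO3 (ENSG00000118689.15, chromosome 6, 108559835 to 108684774, plus strand) held 64.1, 59.9, 56.6 and 52.7 CPM in control replicates 1 to 4. It held 56.7, 61.6, 61.3 and 56.9 CPM in ELAPOR1 replicates 1 to 4. The ELAPOR1 values all lay inside the control range. The log2 fold change was 0.016 (SE 0.0529), and it was -0.051 after removal of GC and length trends. FOXO3B, a near-identical copy with which reads can be shared, was given 0.113% to 1.32% of the summed expected counts of both genes. Messenger RNA counts do not show the phosphorylation or location of the protein.

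Levels of different genes can be set side by side only per length of transcript, here as CPM per kilobase of the exons of each gene in GENCODE release 29. In control libraries YPEL5 came first at 22.0 CPM per kilobase, followed by BTG1 (15.1), TXNIP (13.0), FOXO3 (7.56), YPEL3 (5.64), CCNG2 (5.36) and PIK3IP1 (2.02). SESN1, BTG2 and ARRDC4 came last at 0.693, 0.664 and 0.519 CPM per kilobase. The ranges of YPEL3 and CCNG2 overlapped over the control libraries, as did those of neighbours among the last 3 genes, while all other neighbours were apart. In ELAPOR1 libraries TXNIP (15.9) and YPEL5 (15.6) overlapped at the top, as did YPEL3 (2.41) and CCNG2 (2.15). PIK3IP1 (1.253), ARRDC4 (1.02), BTG2 (0.928) and SESN1 (0.723) each overlapped the next in the order. Isoform lengths in these cells may differ from the exon total of the annotation, so the order is approximate.

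**Figure D2:**
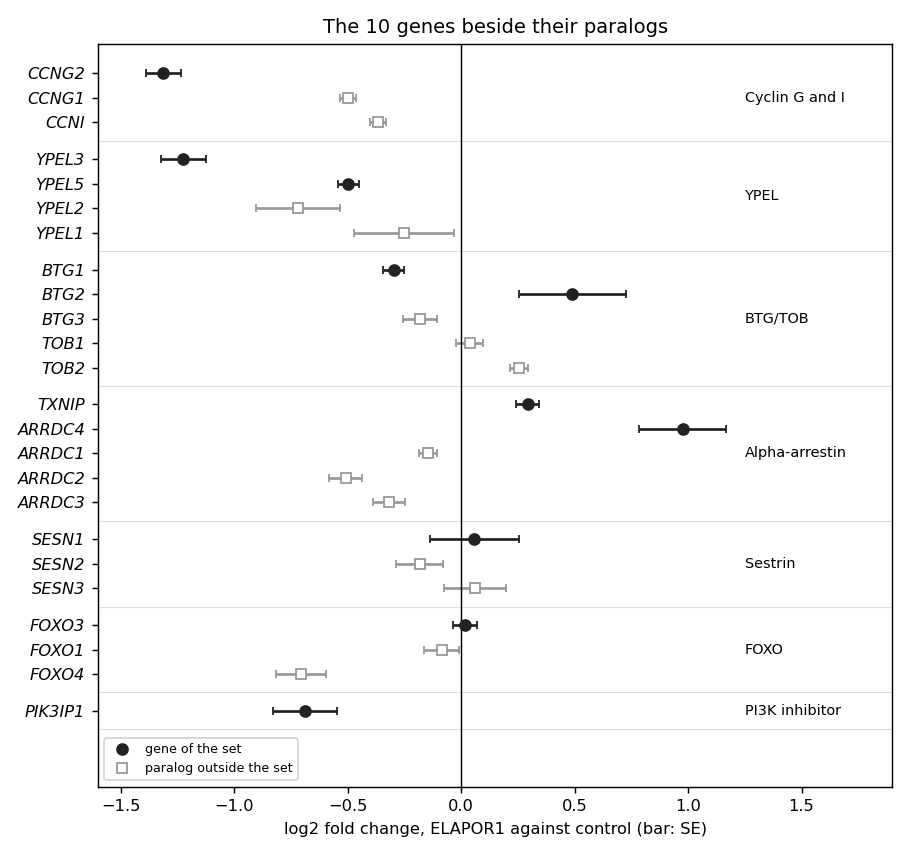
Log2 fold change of ELAPOR1 against control (horizontal axis, bars for the SE of the fit, 4 libraries per group) for the 10 genes (filled circles) and their tested paralogs outside the set (open squares), by family, with FOXO1 and FOXO4 shown beside FOXO3. Cyclin G and yippee-like genes all lie below 0, whereas TXNIP and ARRDC4 lie above 0 and the other alpha-arrestins below it.

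The paralogs of these genes are outside the set, but their list, like the other lists of related genes below, was drawn up with earlier results of these data known. Of 15 paralogs 12 were tested, and 7 passed the threshold (58.3%, beside 44.7% of all tested genes), 6 lower and 1 higher. Their median log2 fold change was -0.22. YPEL4 reached at most 7 counts, and BTG4 and ARRDC5 at most 1.

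CCNG1, the p53-induced cyclin G1, fell from 163 ± 6.30 to 115.5 ± 2.34 CPM, with -0.50 as log2 fold change (edgeR adjusted p = 1.7e-13, SE 0.0358). CCNI, an atypical cyclin whose gene is the nearest tested neighbour of CCNG2 on one side, fell by 0.37 on the log2 scale (edgeR adjusted p = 1.5e-10, SE 0.0351). CCNG2 made up 9.25 ± 0.870% of the summed CPM per kilobase of CCNG1 and CCNG2 in control and 5.45 ± 0.671% in ELAPOR1 libraries.

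YPEL2 fell from 4.49 ± 0.603 to 2.74 ± 0.642 CPM (log2 fold change -0.72, edgeR adjusted p = 0.00169, SE 0.185). YPEL1 was at 2.565 ± 0.466 and 2.14 ± 0.405 CPM and did not pass the test (edgeR adjusted p = 0.378). The yippee-like family summed to 28.8 ± 0.736 CPM per kilobase in control and 18.8 ± 0.609 in ELAPOR1 libraries. YPEL5 held 76.6 ± 1.999% of that sum in control and 82.9 ± 0.794% in ELAPOR1, and YPEL3 19.6 ± 2.24% and 12.8 ± 1.01%.

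In the BTG/TOB family, TOB2, a further CCR4-NOT-binding antiproliferative gene, rose by 0.25 on the log2 scale (edgeR adjusted p = 2.2e-06, SE 0.0394). TOB1 was at 41.6 ± 2.03 and 42.6 ± 3.55 CPM (edgeR adjusted p = 0.643) and BTG3 at 20.45 ± 1.341 and 18.02 ± 1.345 CPM. BTG3 stood at the threshold, with an edgeR adjusted p-value of 0.0532 that became 0.0301 without control replicate 4 and 0.0312 without ELAPOR1 replicate 2. The family total was 58.5 ± 1.45 CPM per kilobase in control and 58.7 ± 1.38 in ELAPOR1. Within that sum the share of BTG1 was 25.8 ± 0.664% in control and 20.9 ± 0.182% in ELAPOR1, and that of TOB2 29.75 ± 0.531% and 35.4 ± 1.2%.

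The other alpha-arrestins, adaptors that recruit ubiquitin ligases to membrane proteins, went the opposite way to TXNIP and ARRDC4. ARRDC2 fell by 0.51 on the log2 scale (edgeR adjusted p = 5.8e-07, SE 0.0729), ARRDC3 by 0.32 (adjusted p = 3.7e-04) and ARRDC1 by 0.15 (adjusted p = 0.003). The family total was 53.2 ± 1.503 CPM per kilobase in control and 51.0 ± 1.77 in ELAPOR1. The share of TXNIP in it was 24.4 ± 1.26% in control and 31.1 ± 0.390% in ELAPOR1. No difference between relatives was itself tested.

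Of the sestrins, SESN2 was at 9.96 ± 0.658 and 8.77 ± 0.766 CPM (edgeR adjusted p = 0.157) and SESN3 at 6.54 ± 0.603 and 6.85 ± 1.39 CPM (edgeR adjusted p = 0.757). Neither passed the test. SESN2 held the largest share of the family per kilobase, 68.8 ± 2.42% in control and 65.1 ± 4.03% in ELAPOR1 libraries.

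**Figure D3:**
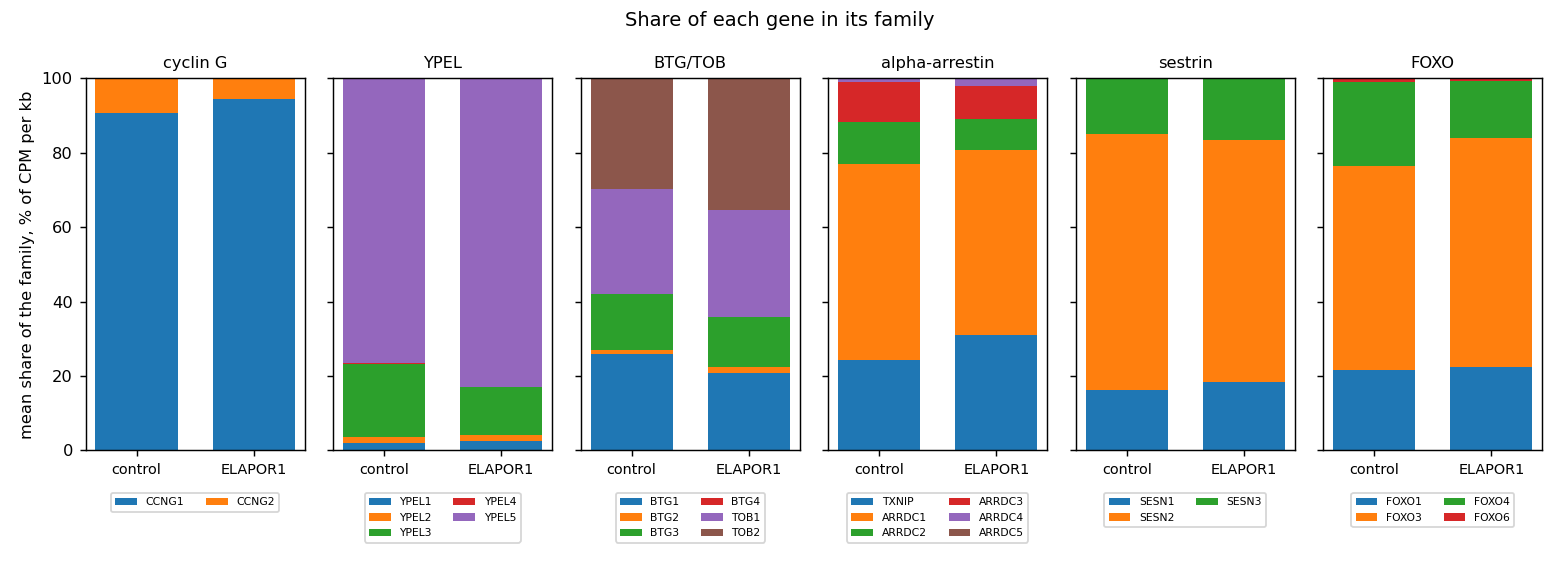
Mean share of each gene in its family, as a percentage of the family's summed CPM per kilobase (vertical axis, 0 to 100), in the 4 control and the 4 ELAPOR1 libraries. The share of FOXO3 in the FOXO family was 54.9% in control and 61.5% in ELAPOR1, and that of FOXO4 22.6% and 15.3%.

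The FOXO factors and the kinases and receptors that control them were described next, as the pathway above the set. Of 24 genes 23 were tested and 14 passed (60.9%, beside 44.7% of all), 6 higher and 8 lower, with a median log2 fold change of -0.019. FOXO4 fell from 10.7 ± 0.897 to 6.53 ± 0.642 CPM, with -0.71 as log2 fold change (edgeR adjusted p = 2.8e-06, SE 0.111). FOXO1 was at 18.4 ± 0.963 and 17.4 ± 1.19 CPM (edgeR adjusted p = 0.393), and FOXO6 reached at most 11 counts. SGK1, a kinase that phosphorylates FOXO factors as AKT does, rose from 5.55 ± 0.880 to 8.66 ± 1.02 CPM (log2 fold change 0.64, edgeR adjusted p = 1.2e-04, SE 0.130). PHLPP2, a phosphatase that removes the activating phosphate of AKT, rose by 0.43 on the log2 scale (edgeR adjusted p = 1.3e-07), while its paralog PHLPP1 fell by 0.30 (adjusted p = 6.5e-06). AKT2 rose by 0.11 (adjusted p = 0.00491), and AKT1 was at 99.98 ± 1.29 and 98.5 ± 6.09 CPM (edgeR adjusted p = 0.737). FOXO1, FOXO6, AKT1, AKT2 and PHLPP1 fall outside the rule by which genes were named and were chosen after their values were seen.

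Other genes known as FOXO-linked targets were mostly lower among those that passed. Of 26 genes 24 were tested and 14 passed, 12 lower and 2 higher (58.3% of those tested, beside 44.7% of all tested genes and 22.1% lower). The median log2 fold change was -0.12. KLHL24, an adaptor of a ubiquitin ligase, fell from 39.9 ± 0.983 to 19.05 ± 1.01 CPM, with -1.07 as log2 fold change (edgeR adjusted p = 1.1e-15, SE 0.0628). KLF15, a transcription factor of the fasting response, fell from 2.145 ± 0.0328 to 0.721 ± 0.0671 CPM (log2 fold change -1.57, edgeR adjusted p = 2.0e-05, SE 0.279), on at most 38 counts. BBC3, which encodes the pro-apoptotic protein PUMA, fell from 11.9 ± 1.08 to 6.98 ± 0.428 CPM (log2 fold change -0.76, edgeR adjusted p = 2.6e-07, SE 0.105). The genes that rose were GADD45A, a growth-arrest and DNA-damage gene (0.37, edgeR adjusted p = 1.7e-05), and KLF6, a zinc-finger factor (0.21, adjusted p = 6.0e-05). These 2 were named because so few rose, after their values were seen. TRIM63 and BNIP3 had 0 counts in every library. Many FOXO-linked genes answer to other factors too, and FOXO activity was not measured.

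**Figure D4:**
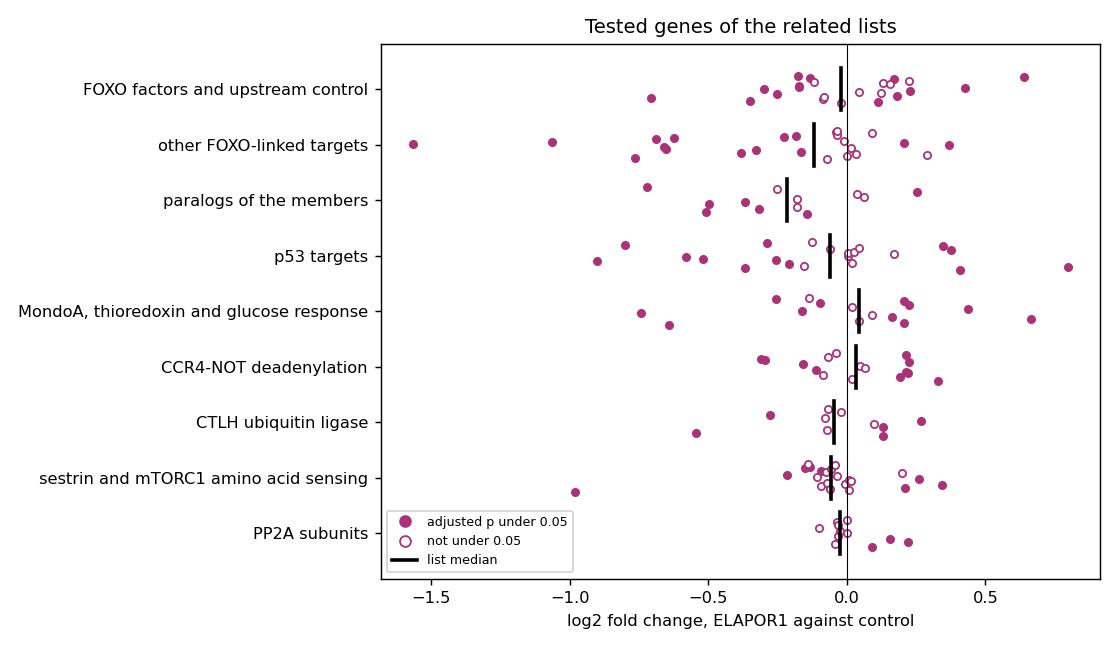
Log2 fold change of ELAPOR1 against control (horizontal axis) of each tested gene in the 9 lists of related genes, with filled points for genes under an edgeR adjusted p-value of 0.05, open points for the others and a black line for the list median. Vertical position within a list has no meaning. In the list of other FOXO-linked targets 12 filled points lie below 0 and 2 above it.

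Targets of the tumour suppressor p53, which also drives BTG2 and SESN1, went both ways. Of 23 genes 21 were tested and 12 passed (57.1%, beside 44.7% of all tested genes), 4 higher and 8 lower, with a median log2 fold change of -0.062. CDKN1A, which encodes the cyclin-dependent kinase inhibitor p21, rose from 16.2 ± 0.755 to 28.2 ± 2.21 CPM, with 0.80 as log2 fold change (edgeR adjusted p = 5.9e-11, SE 0.0733). GDF15, a stress-induced secreted factor, fell by 0.90 on the log2 scale (edgeR adjusted p = 0.00442, SE 0.257), and TP53INP1, a p53-induced nuclear protein, by 0.80 (SE 0.219, adjusted p = 0.00359). The call of GDF15 was lost without control replicate 4 (log2 fold change -0.65, edgeR adjusted p = 0.0506).

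In the list of MondoA, thioredoxin and glucose-response genes, 15 of 16 were tested and 11 passed (73.3%, beside 44.7% of all tested genes), 6 higher and 5 lower, with a median of 0.043. MLXIP, which encodes MondoA, was at 78.0 ± 3.02 and 83.0 ± 2.40 CPM and did not pass (edgeR adjusted p = 0.075), while its partner MLX rose by 0.16 on the log2 scale (adjusted p = 0.00628). Both were named after their values were seen. MLXIPL, which encodes the related factor ChREBP, fell from 2.90 ± 0.386 to 1.715 ± 0.429 CPM (log2 fold change -0.74, edgeR adjusted p = 0.0073, SE 0.225). KLF10, a zinc-finger repressor, rose by 0.67 (edgeR adjusted p = 1.0e-13, SE 0.0471). DDIT4, a stress-induced inhibitor of mTORC1, fell by 0.64 (edgeR adjusted p = 3.6e-13, SE 0.0477).

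The complexes in which products of the set act were examined as well. The list for CCR4-NOT, which BTG1 and BTG2 bind, also held other deadenylation genes such as PAN2. All 16 genes were tested and 10 passed (62.5%, beside 44.7% of all tested genes), 6 higher and 4 lower, with a median of 0.032. CNOT1, the scaffold of the complex, rose by 0.33 on the log2 scale (edgeR adjusted p = 1.9e-10). PAN2, a deadenylase of a second complex, fell by 0.31 (adjusted p = 1.9e-04), and PABPC1, the cytoplasmic poly(A)-binding protein, as well (log2 fold change -0.295, adjusted p = 6.0e-12). Of the 10 CTLH genes, partners of YPEL5, 5 passed (50%, close to the 44.7% of all tested genes), 3 higher and 2 lower, but 2 were higher and 5 lower once GC and length trends were removed. GID4, a substrate receptor, fell by 0.54 (edgeR adjusted p = 3.7e-05), RMND5A, a ring subunit, fell by 0.28 (adjusted p = 5.5e-05), and RANBP10 rose by 0.27 (adjusted p = 9.5e-05).

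Of 23 genes of amino acid sensing by mTORC1, the pathway sestrins restrain, 22 were tested and 8 passed (36.4%, below the 44.7% of all genes), 3 higher and 5 lower, or 3 and 3 under total count scaling. Without ELAPOR1 replicate 3 the count was 5. MTOR, the kinase itself, rose by 0.34 on the log2 scale (edgeR adjusted p = 1.1e-07) and RPTOR, its partner in the complex, by 0.26 (adjusted p = 7.7e-06). RRAGC, a Rag GTPase, fell by 0.22 (adjusted p = 0.0119), a call that was lost without ELAPOR1 replicate 4 (adjusted p = 0.0638). Of 11 subunits of PP2A, the phosphatase that binds cyclin G2, 3 passed (27.3%, also below 44.7%), all higher: PPP2R1A by 0.22 (edgeR adjusted p = 4.3e-07), PPP2R1B by 0.16 (adjusted p = 0.0086) and PPP2CA by 0.090 (adjusted p = 0.0119). With GC and length trends removed the calls of PPP2R1B (edgeR adjusted p = 0.0839) and PPP2CA (adjusted p = 0.161) were lost.

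The position of the genes was examined through the 10 nearest tested genes on each side. Of all tested genes, 22.6% passed as higher and 22.1% as lower, and no window was tested against those shares. Of the 20 neighbours of YPEL3, from 29913144 to 30355361 on chromosome 16, 10 passed as higher and 3 as lower, with a median log2 fold change of 0.097, and the genes beside YPEL3, TBX6 and GDPD3, were at -0.26 and 0.70. Around CCNG2, 6 neighbours passed as higher and 5 as lower, with a median of 0.028. Around YPEL5, 9 were higher and 2 lower, with a median of 0.19. Around TXNIP, 7 were higher and 1 lower (median 0.027), and around ARRDC4 4 were higher and 4 lower (median -0.094). Of the 20 neighbours of BTG2, 2 passed as higher and 10 as lower. Medians around all 10 genes ran from -0.11 at BTG2 to 0.19 at YPEL5. FOXO3 and SESN1 are direct neighbours among tested genes on chromosome 6, and both had log2 fold changes close to 0.

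The genes whose profile over the 8 libraries was most like that of CCNG2 were CCND2, ADAMTS12 and IL7R, out of 10696 genes that averaged 5 CPM or more. Likeness was the root mean square difference of log2(CPM + 1) after subtracting the control mean of each gene, and it was 0.135, 0.149 and 0.168 for these 3. CCND2, which encodes cyclin D2, was at 10.1 ± 0.432 CPM in control and 3.99 ± 1.03 CPM in ELAPOR1 libraries. For YPEL3, PDZK1IP1 and FGFBP1 were among the 3 nearest, at 0.110 and 0.117. PDZK1IP1, a membrane-associated protein, was at 23.9 ± 1.77 and 10.4 ± 0.899 CPM. With 2 groups such likeness amounts mostly to a similar fold change and is given as a description.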

How the data were processed

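RNA sequencing of 8 Panc 10.05 libraries (4 control, 4 ELAPOR1) was analysed from 1 deposited table of expected counts per gene, which the authors left unscaled between libraries. Per the submitters' processing notes, cutadapt, STAR, RSEM and DESeq2 were used with the build hg38. Their versions, the annotation and the use of strand are not given in the sources used here, so overlapping genes could share reads. Of nonzero values 15.0% were not whole (off by more than 0.001).

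The rounded expected counts went into edgeR 4.0.16 (R 4.3.3): filterByExpr, TMM scaling, robust quasi-likelihood test, two-sided, no covariate, Benjamini-Hochberg adjustment over 13860 genes, calls at an adjusted p-value under 0.05. The SE is the log2 fold change divided by the square root of F. CPM is per 1e6 counts after TMM. The procedure was tested on simulated counts. Replicate pairs differed by more than sampling noise. Chi-square per degree of freedom ran from 2.13 to 6.16 in control and from 1.93 to 2.19 in ELAPOR1. It was highest between control replicates 1 and 4. All 8 libraries were therefore counted, but such differences do not show whether they were separate cultures.

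The 10 genes and the 9 lists of related genes (164 genes, recalled from pathway knowledge) were chosen with earlier results of these data known. Genes named are the 10, all tested paralogs, up to 3 called genes of each other list with the largest change and a mean of at least 1 CPM, and the 3 profiles nearest to CCNG2 and YPEL3. A few genes that these rules or lists include are not reported here. Coordinates and lengths are from GENCODE release 29 (GRCh38), which held 58597 of 58870 identifiers. Promoter windows are from RefSeq (GRCh38.p14), with all 10 genes matched. Alternatives were DESeq2 size factors, total count and upper-quartile scaling, the DESeq2 1.42.0 Wald test, limma-voom (limma 3.58.1), 2 other filters, the replicate block, each library left out, ELAPOR1 left out, an adjusted p-value under 0.01, and removal of GC and length trends (5-degree-of-freedom splines, covering 99.8% of tested genes). Plots were drawn with matplotlib 3.10.9.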

Additional observations from a re-analysis of the deposited data

Results flagged for a closer look

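In 3 of 98 groups of 4 values examined, 1 library was separated from its group by a gap above Dixon's 95% critical value (library totals, genes with a count, mitochondrial share and the CPM of named genes). Chance gives about 1 in 20, or 4.9 of these groups. For TXNIP this was control replicate 2, at 42.4 CPM, where the remaining controls ran from 48.0 to 49.0 CPM. Without that library the log2 fold change of TXNIP was 0.25. For PIK3IP1 it was the same library, at 6.20 CPM, where the remaining controls ran from 8.15 to 8.23 CPM, and its log2 fold change without that library was -0.78. For CCNG2 it was ELAPOR1 replicate 4, at 18.9 CPM, where the remaining ELAPOR1 libraries ran from 14.8 to 15.5 CPM. Its log2 fold change without that library was -1.41.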

How the results depend on the processing

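Over 18 alternatives the log2 fold changes of CCNG2 (-1.41 to -1.28), YPEL3 (-1.29 to -1.16), YPEL5 (-0.53 to -0.47), BTG1 (-0.33 to -0.27), PIK3IP1 (-0.81 to -0.62), TXNIP (0.25 to 0.31), ARRDC4 (0.88 to 1.06) and BTG2 (0.37 to 0.73) kept their sign, while those of SESN1 (-0.095 to 0.17) and FOXO3 (-0.051 to 0.060) did not. The number of all genes called ran from 4682 to 6485, and that of related genes, 84 of 154 tested, from 67 to 88. Of the 9 lists, the number called moved by over 1.5 times in the mTORC1 sensing list, from 8 to 3 at an adjusted p-value under 0.01 (a stricter threshold by construction) and to between 5 and 10 with 1 library left out, and in the PP2A list, from 3 to 1 with GC and length trends removed (the cause was not tested). With the replicate number as a block, 5926 genes and 81 related genes were called, and the log2 fold changes of the 10 genes kept their sign. Deviations of same-numbered libraries correlated at -0.021 to 0.033, and not every library correlated best with its own number. Pairing by number was thus not seen, and whether same-numbered libraries were made together is not known. Among the 10 genes, depth limits BTG2, ARRDC4 and SESN1, at 25 to 80 counts per library. It also limits some tested related genes, by their highest count in any library: KLF15 (38), YPEL1 (50), MLXIPL (54), GDF15 (69), TP53INP1 (89) and YPEL2 (91).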
